A study of Mus musculus with 18 samples.

Results

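Fgf21, Gdf15, Stc2, Vldlr and Ddit4 were followed as a group of stress-induced genes that cells use to signal outwards or to retune their own metabolism. The 5 genes were taken by symbol from the gene column of each table, out of 23420 genes per table, and all 5 were present in each of the 3 tables. RNA-seq had been performed on mouse embryonic lungs at 14.5 dpc (days post coitus), with 3 samples in each of 6 groups. Deficient lungs were Rptorf/f; ShhCre/+, Tfamf/f; ShhCre/+ or Cox10f/f; ShhCre/+, and the littermate controls of each line were Rptorf/+; ShhCre/+, Tfamf/+; ShhCre/+ or Cox10f/+; ShhCre/+. Controls therefore also carried the Cre and 1 floxed allele. Cre is expressed from the Shh locus, which is active in the lung epithelium, so that the other cells of a whole lung kept the gene. Rptor encodes a subunit of the growth-promoting kinase complex mTORC1, Tfam a DNA-binding protein that packages the mitochondrial genome and starts its transcription, and Cox10 an enzyme of haem synthesis on which respiratory complex IV depends. In whole lungs, fewer cells of a type and less RNA per cell cannot be told apart.

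When mitochondria fail, kinases that phosphorylate the translation factor eIF2α slow protein synthesis while favouring translation of the transcription factor ATF4, which then switches on amino acid and redox genes. FGF21 and GDF15 are secreted proteins that carry this signal to other tissues and are used as blood markers of mitochondrial disease. FGF21 acts through FGF receptors with the coreceptor β-Klotho, and GDF15 through GFRAL and RET. STC2 is a secreted glycoprotein that inhibits the pappalysin proteases, VLDLR is a cell surface receptor for lipoproteins and reelin, and DDIT4 (REDD1) is an intracellular inhibitor of mTORC1 that is induced by stress and low oxygen. Of the 5 products, FGF21, GDF15 and STC2 are thus secreted, and VLDLR and DDIT4 are not.

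Values are normalised reads, in which the authors had scaled each sample's read counts by its size factor, and each sample held between 27727202 and 29611064 of them. Genes were tested in a line where 3 or more of its 6 samples had at least 10 normalised reads, and a gene passed at a Benjamini-Hochberg adjusted p below 0.05 in limma. Fold changes are deficient over control on the log2(value + 1) scale, which understates changes of low genes. Deficient lungs carried lower levels of the epithelial markers, with 12, 7 and 3 of 13 such genes lower in the Rptor, Tfam and Cox10 lines (18.2%, 2.63% and 0.335% of all genes were lower). Rptor, Tfam and Cox10 themselves had log2 fold changes of -0.066, -0.12 and -0.0055 in their own lines, none past the threshold. Among the deficient samples, 2 stood apart. Rptor-deficient replicate 1 differed by more than 0.5 on the log2 scale from the mean of the other 2 replicates in 11% of genes (6.51% and 7.65% for the others), and Cox10-deficient replicate 3 in 14.6% (8.90% and 8.69%). Without the latter, 10 of the 13 epithelial markers were lower in the Cox10 line, as were 1.2% of all genes in that fit. Values without these lungs are given beside the results they touch most.

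Of the 5 genes, Stc2 and Gdf15 rose clearly in Tfam-deficient lungs, Vldlr rose in Rptor- and Tfam-deficient lungs, by 0.63 and 0.27 on the log2 scale, and no gene of the group passed the threshold in Cox10-deficient lungs. In the Rptor line 1 of the 3 genes tested passed, where 34.8% of all 14940 genes did, and 2 (Vldlr and Ddit4) passed with the replicate number as a block, where 38.6% did. In the Tfam line 2 of the 3 genes that had at least 10 normalised reads in all 6 samples passed (Stc2 and Vldlr), against 4.66% of 15053 genes, although Vldlr lost the threshold in 5 of the 6 fits without a sample. Gdf15 passed there too but reached the filter through the deficient lungs alone, and it is left out of this count. In the Cox10 line 0 of 3 passed in limma, against 0.475% of 14937 genes, and 1 of the 3 (Stc2) had an unadjusted p below 0.05, against 13% of genes. Fgf21 was too low to be tested in any line, and Gdf15 was testable in the Tfam line alone. Levels differed widely among the 5 genes. Per kilobase of exon, the control means in the Tfam line were 738 ± 79.3 normalised reads for Ddit4, 93.3 ± 1.15 for Vldlr, 25.3 ± 0.33 for Stc2, 1.64 ± 0.95 for Gdf15 and 0.70 ± 0.61 for Fgf21 (SD, n = 3). The order from Ddit4 down to Stc2 was the same in the controls of each line, whereas the ranges of mean ± SD of Gdf15 and Fgf21 overlapped in Tfam and Rptor controls.

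**Figure D1:**
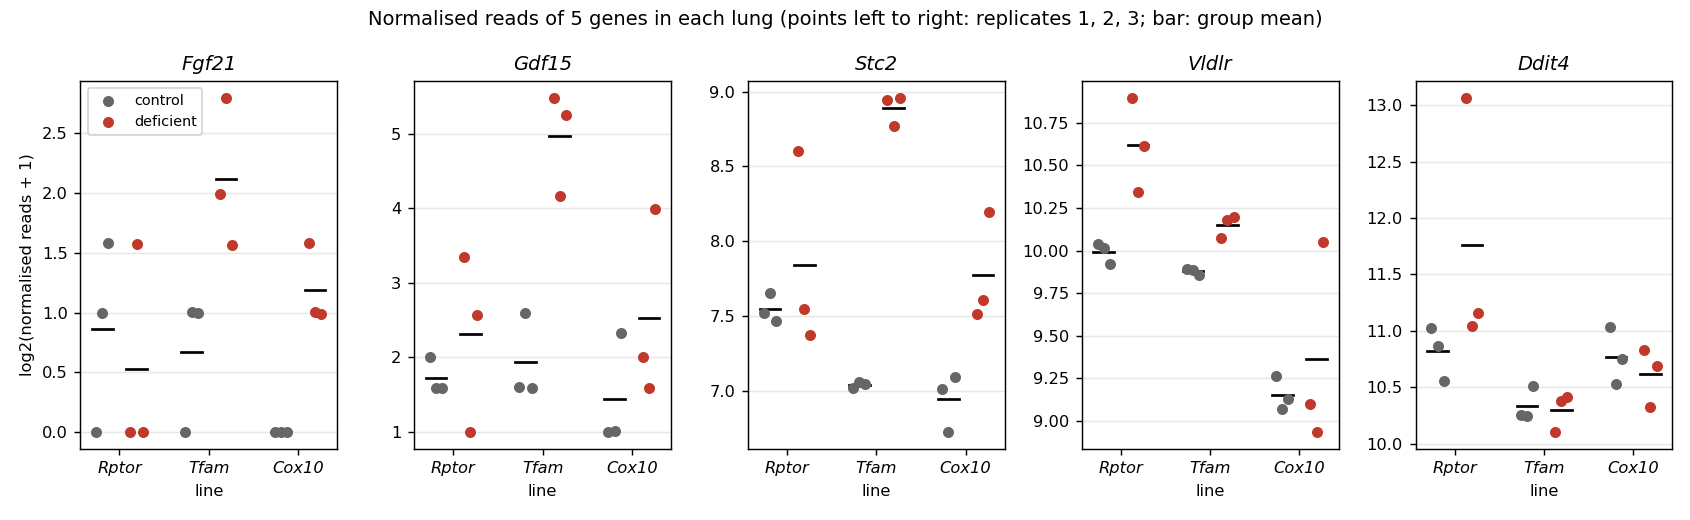
Normalised reads of Fgf21, Gdf15, Stc2, Vldlr and Ddit4 in each of the 18 lungs, as log2(value + 1) on the vertical axis with its own range for each gene, by line and with controls in grey and deficient lungs in red; bars are group means. The Tfam-deficient points of Stc2 and Gdf15 lie above all controls of that line, and the highest Ddit4 point is a Rptor-deficient lung.

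Stc2 rose in Tfam-deficient lungs, where the replicates were close to each other. The gene lies on chromosome 11 (mm10, chr11:31357307-31370074, minus strand). In the Tfam line it had 129, 132 and 131 normalised reads in controls 1 to 3 and 492, 436 and 497 in deficient lungs 1 to 3. The groups were far apart and the controls nearly alike. This corresponded to a log2 fold change of 1.85 with an SE of 0.096 (adjusted p = 1.53e-06 in limma). Cox10 controls had 128, 105 and 136 normalised reads and deficient lungs 182, 194 and 293. All 3 deficient lungs lay above all controls, as was the case for 21.3% of the genes tested in this line in one direction or the other. Stc2 differed by 0.83 on the log2 scale (SE 0.20), which did not pass (adjusted p = 0.162 in limma), and by 0.62 without deficient replicate 3. Rptor controls had 182, 201 and 176 and deficient lungs 389, 186 and 165, so that replicate 1 alone was raised while the other 2 lay within or below the range of the controls. This gave a log2 fold change of 0.29 (adjusted p = 0.451 in limma), and of -0.086 without deficient replicate 1.

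The effect of the Tfam deletion on Stc2 was larger than that of the Rptor deletion. The difference of the effects (Rptor minus Tfam) was -1.55 on the log2 scale (SE 0.33, adjusted p = 0.00705 in limma), and effects differed between these lines for 11.2% of 14550 genes. It was -1.94 without Rptor-deficient replicate 1. The Tfam effect exceeded the Cox10 effect by 1.02 (95% interval 0.32 to 1.72, unadjusted p = 0.00662), which did not pass over all genes (limma adjusted p = 0.977; 0.055% of genes passed). Rptor and Cox10 effects differed by -0.53 (adjusted p = 0.359 in limma; 7.48% of genes passed), and by -0.91 without Rptor-deficient replicate 1, when the threshold was passed (adjusted p = 0.0223 in limma). Averaged over the lines, Stc2 rose by 0.99 (SE 0.14, adjusted p = 3.03e-05 in limma; 37.1% of genes passed this test).

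Since the deletion concerns epithelial cells, Stc2 was also set against the mean of the 13 epithelial markers of the same sample. Relative to them, log2 Stc2 went from -3.41 ± 0.11 to -2.04 ± 0.85 in the Rptor line, control to deficient, from -3.89 ± 0.046 to -1.77 ± 0.086 among Tfam lungs and from -3.61 ± 0.18 to -2.43 ± 0.17 among Cox10 lungs (SD, n = 3 per group). The differences of 1.37, 2.12 and 1.18 each had an exact permutation p of 0.1, the smallest that 3 samples against 3 allow. The groups did not overlap in any line on this scale, in which the fall of the markers themselves adds to the difference. In Rptor-deficient replicates 1 to 3 the marker mean stood at -1.28, -1.04 and -0.90 from the controls. A gene without change would thus separate in that line too. The share of all genes without overlap on this scale was not computed. Without Rptor-deficient replicate 1 the difference in the Rptor line was 0.89, with Stc2 itself at or below the control mean in the other 2 deficient lungs, and it was 1.08 in the Cox10 line without deficient replicate 3.

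Gdf15 was rare in control lungs and became readily detectable in Tfam-deficient lungs. The gene lies on chromosome 8 (mm10, chr8:70629393-70632456, minus strand). Tfam controls had 2.03, 5.05 and 2.00 normalised reads and deficient lungs 43.7, 16.9 and 37.1. No deficient lung overlapped the controls, as for 22.8% of the genes tested in this line in one direction or the other, and replicate 2 had less than the other 2. The reads of the line numbered 9 in controls and 99 in deficient lungs, a ratio of 11 with a 95% counting interval of 5.57 to 24.8, which covers counting error only. Since Gdf15 met the filter through the deficient lungs alone, it was tested in the fit without a filter, in which 3.09% of genes passed. It rose by 3.04 on the log2 scale (SE 0.43, adjusted p = 0.0037 in limma).

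Gdf15 in the Cox10 line had 0.993, 1.01 and 4.0 normalised reads in controls and 2.99, 2.01 and 14.8 in deficient lungs, 6 against 20 reads. The groups overlapped and the largest value was that of deficient replicate 3, which stood apart. Rptor controls had 2.99, 2.00 and 1.99 and deficient lungs 9.18, 0.990 and 4.94, 7 against 15 reads, and the groups again overlapped. Without the filter, the adjusted p in limma was 0.571 in the Cox10 line and 0.517 in the Rptor line, while the mean over the 3 lines was 1.57 on the log2 scale (adjusted p = 0.00367 in limma; 28.9% of genes passed). This mean was 1.39 without Rptor-deficient replicate 1 and 1.32 without Cox10-deficient replicate 3 (adjusted p = 0.00821 and 0.00604 in limma). An exact permutation test within lines over 8000 arrangements gave p = 0.00825 for Gdf15 over n = 18 samples, where 0.00025 is the smallest possible value.

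Fgf21 was close to the limit of detection in every group. The gene lies on chromosome 7 (mm10, chr7:45613886-45615490, minus strand). Tfam controls had 0, 1.01 and 1.00 normalised reads and deficient lungs 2.98, 5.96 and 1.96. The groups did not overlap, as for 22.8% of the genes tested in this line, and the summed reads were 2 and 11, a ratio of 5.5 with a counting interval of 1.20 to 51.1. All 3 Cox10 controls were at 0 and deficient lungs had 2.00, 1.01 and 0.989. These were 4 reads against 0, a ratio whose 95% counting interval begins at 0.66, so that no difference was detectable from the reads at this depth. Rptor controls had 0, 0.999 and 1.99 and deficient lungs 0, 1.98 and 0, without a direction that could be read at this depth. The exact permutation p was 0.1 in the Tfam and Cox10 lines (n = 3 each, the smallest possible) and 0.7 in the Rptor line. Over all 3 lines it was 0.0528, with 8000 arrangements of n = 18 samples.

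**Figure D2:**
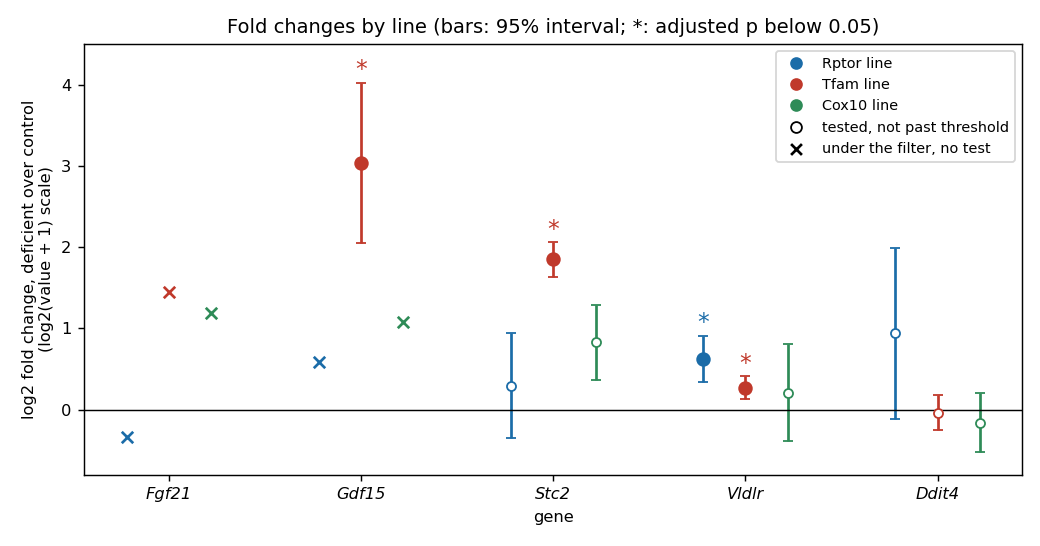
Log2 fold change of each gene, deficient over control, by line; points with bars are limma estimates with 95% intervals, filled and starred where the adjusted p was below 0.05 (Gdf15 in the Tfam line met the filter through its deficient lungs alone), and crosses are genes under the filter, which were not tested. Gdf15 at 3.04 and Stc2 at 1.85 in the Tfam line are the largest, and the interval of Ddit4 in the Rptor line, from -0.11 to 1.99, is the widest.

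The promoters are shown for the 2 genes whose start site lies near a match to the composite motif that ATF4 and C/EBP partners are known to bind, TGATGNAA, searched on both strands. Sequences are 300 bases, 250 before to 50 after the start site, from RefSeq (GRCm38.p6), and 7 windows were found for the 5 genes. The motif was present in the single window of Fgf21 (chr7:45615441-45615740, minus strand) and in 1 of the 2 windows of Vldlr (chr19:27216770-27217069, plus strand), and was absent from both windows of Gdf15 and those of Stc2 and Ddit4. Of all 32851 promoters of this length 3.97% hold it. The match is in capitals and, read on the strand shown, is the reverse complement of the motif. It ends 131 bases before the start site in Fgf21 and 192 bases before it in Vldlr.
Fgf21: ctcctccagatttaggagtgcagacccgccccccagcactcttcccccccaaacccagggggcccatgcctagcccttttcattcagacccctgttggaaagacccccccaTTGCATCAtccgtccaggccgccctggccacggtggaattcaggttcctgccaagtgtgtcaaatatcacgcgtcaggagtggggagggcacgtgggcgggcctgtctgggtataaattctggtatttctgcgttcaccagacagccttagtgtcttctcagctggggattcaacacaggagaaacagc
Vldlr: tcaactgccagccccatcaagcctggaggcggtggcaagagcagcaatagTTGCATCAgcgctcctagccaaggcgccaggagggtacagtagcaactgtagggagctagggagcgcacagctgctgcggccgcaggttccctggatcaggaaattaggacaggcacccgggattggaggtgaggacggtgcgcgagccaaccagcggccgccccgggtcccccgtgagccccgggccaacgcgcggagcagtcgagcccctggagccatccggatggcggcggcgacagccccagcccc
A match of letters is a description and does not show that a factor binds there. Stc2 and Gdf15, the genes that rose most in the Tfam line, hold no match in these windows, which cover only the bases next to the start.

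Vldlr passed in the Rptor line, where Ddit4 passed with the replicate number as a block or with all 18 samples in one fit but not in the fit of the 6 samples without a block. It lies on chromosome 19 (mm10, chr19:27216484-27254231, plus strand). Rptor controls had 1050, 1035 and 970 normalised reads and deficient lungs 1907, 1299 and 1565. Every deficient lung lay above every control, as for 50.3% of genes in this line in one direction or the other. Vldlr rose by 0.63 on the log2 scale (SE 0.12, adjusted p = 0.0059 in limma) and by 0.49 without deficient replicate 1, still past the threshold. Tfam controls had 947, 946 and 926 and deficient lungs 1078, 1156 and 1174, which did not overlap (22.8% of genes). The rise of 0.27 on the log2 scale (SE 0.063) passed narrowly (adjusted p = 0.0334 in limma), and the threshold was lost in 5 of the 6 fits without a sample, with adjusted p in limma from 0.0405 to 0.139, and with all 18 samples in one fit (adjusted p = 0.555 in limma).

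Vldlr in the Cox10 line had 612, 537 and 558 normalised reads in controls and 547, 488 and 1061 in deficient lungs. The mean rise came from deficient replicate 3, as the other 2 lay within or below the range of the controls. A log2 fold change of 0.21 (adjusted p = 0.739 in limma) became -0.14 without that sample. Effects did not pass as different between any pair of lines with all samples (adjusted p from 0.387 to 0.995 in limma). Without Cox10-deficient replicate 3 the effect in the Rptor line exceeded that in the Cox10 line by 0.76 (adjusted p = 0.00362 in limma). Averaged over the lines, Vldlr rose by 0.37 (SE 0.11, adjusted p = 0.0157 in limma).

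Levels of endothelial markers were set beside Vldlr, as endothelial cells are known to express it. Of 7 endothelial markers 6 were higher in the Rptor line (7 without deficient replicate 1; 16.6% and 16.9% of all genes) and 0 passed in the Tfam and Cox10 lines in limma (2 and 0 at an unadjusted p below 0.05, against 17.4% and 13% of all genes), and their summed level was 33841 to 35333 normalised reads in Rptor controls and 42368 to 47697 in Rptor-deficient lungs. On the log2 scale their mean stood 0.23, 0.33 and 0.44 above the controls in Rptor-deficient replicates 1 to 3, where Vldlr stood 0.91, 0.35 and 0.62 above. In Cox10-deficient replicate 3 their mean stood 0.69 above the controls on the log2 scale, where Vldlr stood 0.90 above. Relative to the mean of these markers, log2 Vldlr went from -2.07 ± 0.040 in Rptor controls to -1.78 ± 0.34 in Rptor-deficient lungs (SD, n = 3 per group), a difference of 0.30 with overlapping groups (p = 0.2, exact permutation test) and of 0.11 without deficient replicate 1. The difference was 0.17 in the Tfam line (exact permutation p = 0.1, the smallest possible, n = 3 each). It was -0.069 in the Cox10 line, or -0.21 without deficient replicate 3. The part of the markers in the result was not tested further. Over the 18 samples, the genes nearest to Vldlr by the root mean square of differences from their line's control mean were Sox7 (0.13), Sox17 (0.13) and Ptprb (0.14), among 14547 genes.

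**Figure D3:**
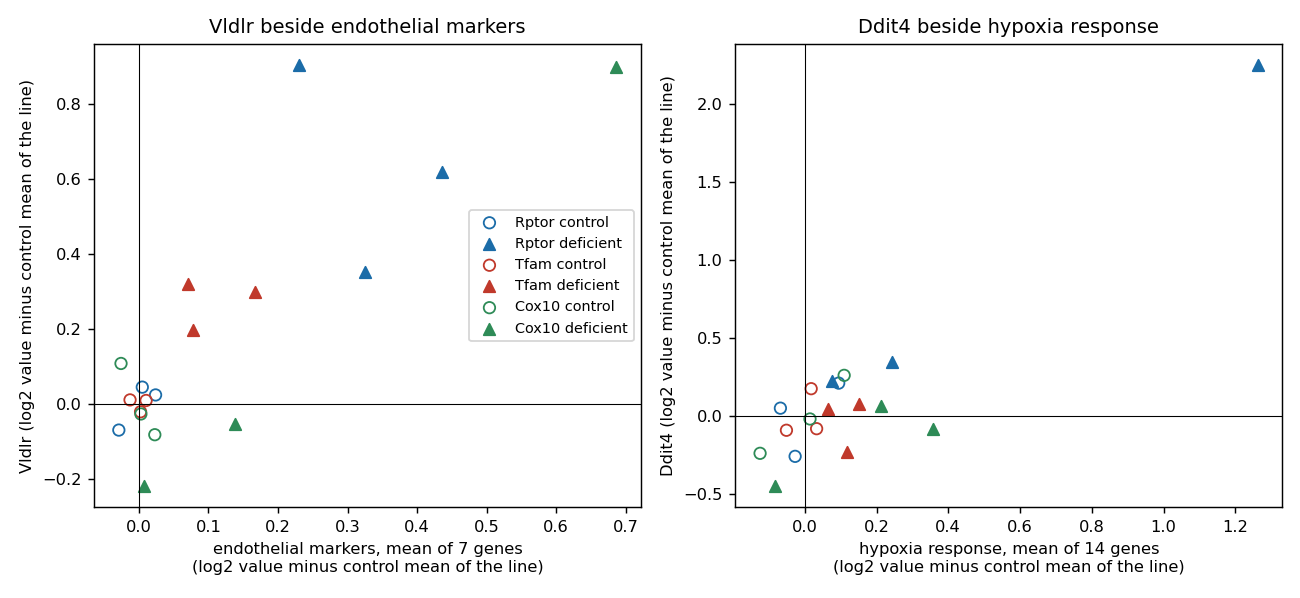
Level of Vldlr (left) against the mean of 7 endothelial markers, and of Ddit4 (right) against the mean of 14 hypoxia genes, each as log2 value minus the control mean of the line, for 18 lungs coloured by line with controls as open circles. Cox10-deficient replicate 3 is at 0.69 and 0.90 on the left, and Rptor-deficient replicate 1 is at 1.26 and 2.25 on the right, apart from all other lungs.

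Ddit4 was the most abundant gene of the group and stood out in a single lung. It lies on chromosome 10 (mm10, chr10:59949669-59951834, minus strand). Rptor controls had 2087, 1867 and 1507 normalised reads and deficient lungs 8588, 2106 and 2291. Deficient replicate 1 was far above the rest, and replicate 2 exceeded the highest control by a narrow margin. Over the group this made a log2 fold change of 0.94 (SE 0.46, adjusted p = 0.146 in limma), and 0.28 without deficient replicate 1. With the replicate number as a block, the adjusted p in limma was 0.0382. This treats samples of the same number as pairs, which the labels do not state. Tfam controls had 1218, 1210 and 1455 and deficient lungs 1098, 1327 and 1359, and Cox10 controls had 2093, 1480 and 1724 against 1824, 1278 and 1651. Both pairs of groups overlapped, with log2 fold changes of -0.038 (95% interval -0.25 to 0.18) and -0.16 (-0.52 to 0.20). Effects in the Rptor line exceeded those of the Tfam and Cox10 lines by 0.98 and 1.10, which did not pass (adjusted p = 0.201 and 0.185 in limma), and by 0.32 and 0.44 without Rptor-deficient replicate 1.

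Genes of the hypoxia response were raised in the same lung. Of 14 such genes in the table, 13 were highest among the deficient lungs of the Rptor line in replicate 1. The share of all genes highest in this lung was not counted. Their mean stood 1.26 above the controls on the log2 scale in this lung, and 0.076 and 0.24 in replicates 2 and 3. Adm, which encodes the vasodilator adrenomedullin, had 30.9, 25.0 and 42.8 normalised reads in Rptor controls and 240, 46.5 and 49.4 in deficient lungs. Slc2a1, encoding a glucose transporter, had 3084, 2782 and 2648 against 7617, 2260 and 2740. Stc2, Gdf15 and Vldlr were likewise highest of the line in this lung. Relative to the mean of the 14 genes, log2 Ddit4 went from 0.96 ± 0.20 in Rptor controls to 1.38 ± 0.50 in Rptor-deficient lungs (SD, n = 3 per group; p = 0.3 in an exact permutation test), a difference of 0.41 that was 0.12 without deficient replicate 1. The difference was -0.15 in the Tfam line (exact permutation p = 0.5, n = 3 each). It was -0.32 in the Cox10 line (exact permutation p = 0.1, the smallest possible, n = 3 each), or -0.26 without Cox10-deficient replicate 3. Ddit4 by itself had an exact permutation p of 0.5 in the Cox10 line. The part of the hypoxia genes in the result was not tested further. Of the 14 hypoxia genes 3 were higher in the Rptor line in limma, where 16.6% of all genes were, with Ndrg1 (log2 fold change 1.22) and Pfkfb3 (0.91) changing most, and also 3 without deficient replicate 1. The promoter of Ddit4 (chr10:59951721-59952020, minus strand) is shown since the hypoxia element ACGTG or GCGTG, here in capitals, occurs in it in 2 places. On either strand 43.8% of all promoters hold it, and of the other windows those of Fgf21 and Stc2 have it in 2 places each and 1 of those of Gdf15 in 1 place.
Ddit4: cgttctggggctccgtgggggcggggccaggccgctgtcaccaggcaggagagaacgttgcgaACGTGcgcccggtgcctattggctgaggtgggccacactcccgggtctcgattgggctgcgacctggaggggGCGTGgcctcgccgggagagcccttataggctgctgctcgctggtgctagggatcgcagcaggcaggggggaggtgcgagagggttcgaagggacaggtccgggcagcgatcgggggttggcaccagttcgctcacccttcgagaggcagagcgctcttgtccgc

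Upstream genes of the stress relay were compared to see which of them moved with the group. The relay comprised 13 genes, among them the eIF2α kinases, Atf4 and its partners. Of the 13, 1 was higher in the Tfam line (Atf5, a transcription factor translated under stress, from 2181 to 5284 normalised reads, log2 fold change 1.28, limma adjusted p = 8.94e-06) and 0 were lower, against 2.03% and 2.63% of all genes, whereas Atf4 mRNA had 5374 and 6131 (log2 fold change 0.19, limma adjusted p = 0.086). Among Rptor-deficient lungs, where 16.6% of all genes were higher and 18.2% lower, 1 was higher (Ddit3, which encodes CHOP, 0.44) and 3 were lower, with Atf4 at -0.53 and Eif2s1, encoding eIF2α, at -0.37. Without deficient replicate 1, 0 were higher and 3 lower. None of the 13 passed in the Cox10 line in limma, where 2 had an unadjusted p below 0.05, as had 13% of all genes.

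Targets of ATF4 other than the 5 genes rose widely in the Tfam line. Of 22 such genes with at least 10 normalised reads in all 6 samples 20 were higher and 0 lower, against 2.03% and 2.63% of all genes, with a median log2 fold change of 0.54 where the median of all genes was 0.00098. Chac1 (3.47), encoding a glutathione-degrading enzyme, rose most of these. Adm2, encoding a secreted peptide, met the filter through its 3 deficient lungs and 1 control and is left out of the count, with 12.2, 9.1 and 7.0 normalised reads in controls and 196, 193 and 170 in deficient lungs. Rptor-deficient lungs differed, as 4 of 22 were higher and 8 lower (median -0.23), with 16.6% of all genes higher and 18.2% lower. Atf3 (0.60) and Slc7a3 (0.58) rose most, and Mthfd2 (-1.0) and Psat1 (-0.94) of one-carbon and serine metabolism fell most. Without deficient replicate 1, 0 were higher and 9 lower (16.9% and 18.9% of all genes). Cox10-deficient lungs had 2 of 22 higher, Slc7a3 (1.57) and Trib3 (1.24), and 0 lower, where 0.141% of all genes were higher. At an unadjusted p below 0.05 in limma, 11 of the 22 were higher and 0 lower, where 13% of all genes changed in either direction. Their median log2 fold change was 0.20. Without deficient replicate 3, 6 were higher at the adjusted p, against 0.482% of all genes in that fit. The effect was smaller in the Rptor than in the Tfam line for 17 of 22 genes (6.35% of all genes) and smaller in the Cox10 than in the Tfam line for 5 (0.0481%), at an adjusted p below 0.05 in limma. The genes most like Stc2 over the 18 samples were Aldh1l2, Trib3 and Krt23 (root mean square differences of 0.31, 0.32 and 0.40), and those most like Gdf15 were Npy2r, Slc7a3 and Aldh1l2 (0.55, 0.67 and 0.71).

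**Figure D4:**
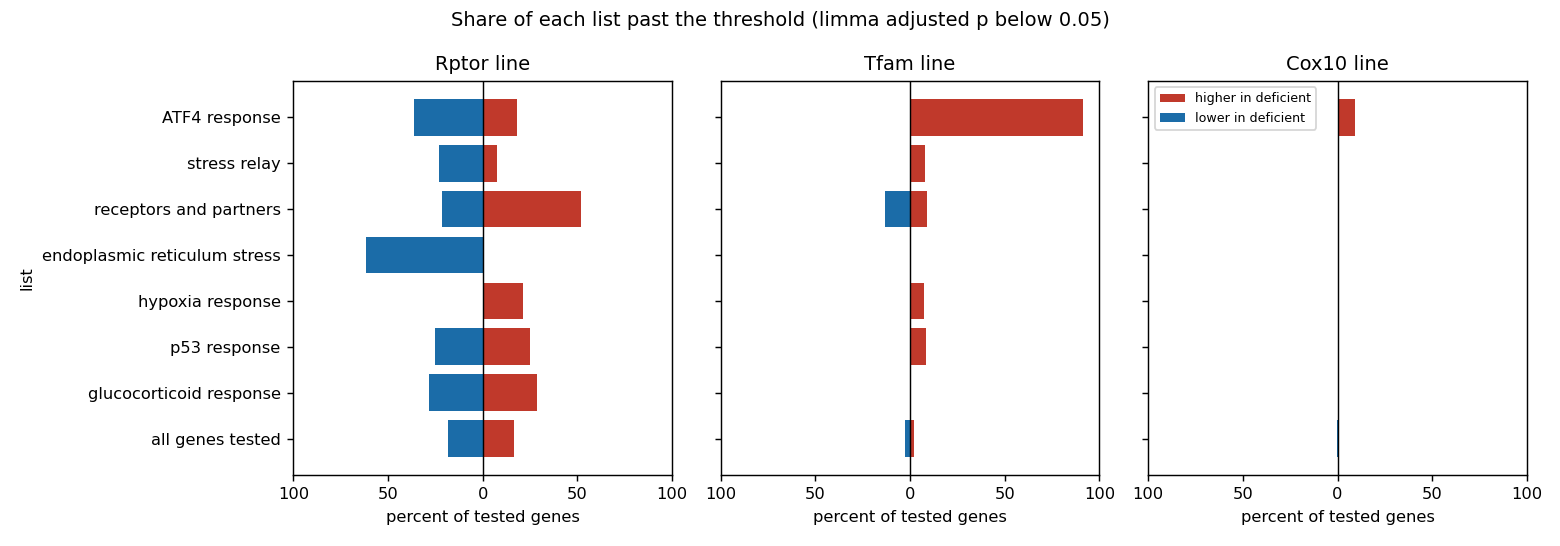
Share of tested genes of each list, and of all genes tested, that were higher (right, red) or lower (left, blue) in deficient lungs at a limma adjusted p below 0.05, by line. The ATF4 list stands at 21 of 23 genes higher in the Tfam line (20 of 22 without Adm2, which met the filter mainly through its deficient lungs), while in the Rptor line the endoplasmic reticulum stress list has 8 of 13 genes lower.

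Other stress programmes that can induce the same genes were counted, to be read against the 16.6% of all genes higher and 18.2% lower in the Rptor line and 2.03% and 2.63% in the Tfam line. Of 13 genes of the endoplasmic reticulum stress response 0 were higher and 8 lower in the Rptor line, with Sdf2l1 (-0.66) and Dnajc3 (-0.45) falling most, and 0 passed in limma in the Tfam and Cox10 lines (6 and 1 at an unadjusted p below 0.05, as were 17.4% and 13% of all genes). Hypoxia genes were higher in 1 of 14 in the Tfam line (Slc2a1, 0.36) and in 0 in the Cox10 line (2 at an unadjusted p below 0.05). Of 12 p53 targets 3 rose and 3 fell in the Rptor line and 1 was higher in the Tfam line (Ccng1, 0.37), and 0 passed in the Cox10 line by limma, also without adjustment. Of 7 glucocorticoid targets 2 were higher and 2 lower in the Rptor line and 0 passed in the Tfam and Cox10 lines in limma (2 and 3 at an unadjusted p below 0.05).

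Receptors and binding partners of the 5 products were measured in the same lungs. Klb and Gfral, encoding the coreceptors of FGF21 and GDF15, were under 10 normalised reads in all 18 samples. Ret, encoding the signalling receptor that GDF15 shares with GDNF family ligands, fell from 233 to 48.2 normalised reads among Rptor lungs (log2 fold change -2.26, limma adjusted p = 6.78e-05) and from 270 to 89.5 among Tfam lungs (-1.59, limma adjusted p = 6.82e-05), and had 233 and 82.2 among Cox10 lungs (-1.66, limma adjusted p = 0.133). Of the FGF receptor genes, Fgfr1 rose in the Rptor line (0.72), and Fgfr2 and Fgfr3 fell both there (-0.32 and -0.52) and in Tfam-deficient lungs (-0.28 and -0.47). For STC2, the genes of the proteases it inhibits, Pappa (1.02) and Pappa2 (1.27), and of their substrates, Igfbp4 (0.53) and Igfbp5 (0.80), rose in the Rptor line and did not pass in the Tfam line, where Stc2 itself rose. Stc1, its paralogue, rose in the Rptor (0.95) and Tfam (0.71) lines.

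Among partners of VLDLR, Apoe, a ligand on lipoproteins, had 4815 and 11529 normalised reads in Rptor control and deficient lungs (a rise of 1.24 on the log2 scale) and 5527 and 8952 in Tfam lungs (0.70). Reln (1.21), Dab1 (0.57) and Lpl (0.73) rose and Lrp8 (-0.54) fell in the Rptor line. Of the genes around DDIT4 and mTORC1, Ddit4l (-1.39) fell and Sesn1 (0.45) and Txnip (0.49) rose in the Rptor line, and none passed in the Tfam or Cox10 lines. In all, 12 of 23 tested genes of this list rose and 5 fell in Rptor-deficient lungs by limma (16.6% and 18.2% of all genes). The counts were 2 and 3 in Tfam-deficient lungs (2.03% and 2.63%) and 0 and 0 in Cox10-deficient lungs (0.141% and 0.335%). In the Cox10 line 6 of the 23 had an unadjusted p below 0.05 in limma, as had 13% of all genes. Without Rptor-deficient replicate 1, 11 rose and 6 fell in the Rptor line, against 16.9% and 18.9% of all genes. Mesenchymal and macrophage markers were also higher in the Rptor line (5 of 9 and 6 of 6, against 16.6% of all genes). Without deficient replicate 1, 5 and 4 were higher, and 1 mesenchymal marker was lower. The part of these markers in the counts was not tested.

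**Figure D5:**
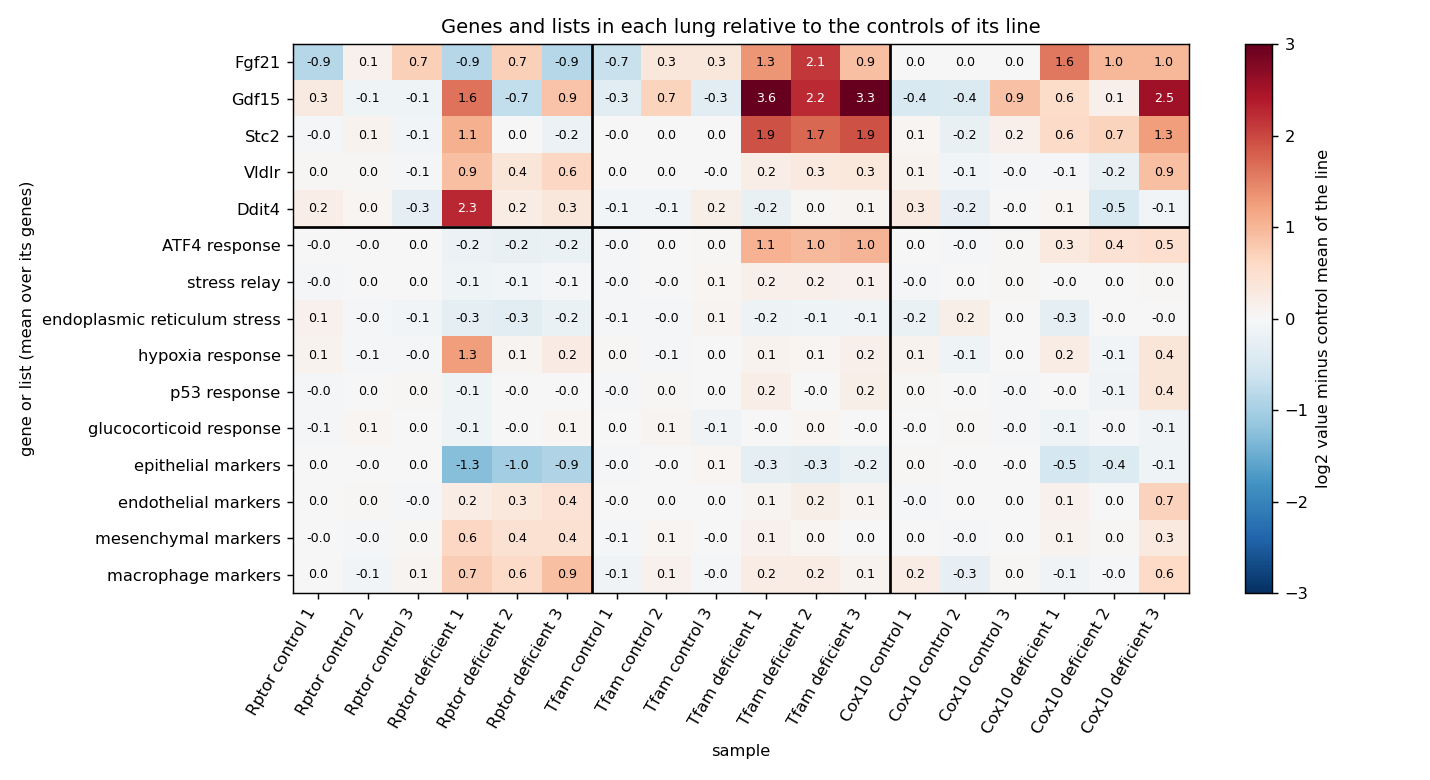
Level of the 5 genes, and the mean of each list, in every lung as the log2 value minus the control mean of its line (colour and printed value), with vertical lines between the Rptor, Tfam and Cox10 lines. Tfam-deficient lungs share raised Gdf15, Stc2 and ATF4 targets, whereas Ddit4 at 2.25 and the hypoxia list at 1.26 stand out in Rptor-deficient replicate 1.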

How the data were processed

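RNA was extracted from embryonic lungs at 14.5 dpc and sequenced in 18 samples, grouped and numbered by their titles. Per the labels, the authors used Trim Galore, HISAT2, featureCounts and DESeq2 with genome build mm10, for which no versions are given in the sources used here. The authors deposited, per line, a normalised signal, the read count divided by a size factor. In each sample 100% of values were whole multiples (tolerance 0.01) of the value of 1 read, 0.978 to 1.02. Reads were recovered by dividing by this step. Deposited columns of log2 fold changes and p-values were not used.

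The 6 samples of a line were fitted with limma 3.58.1 (R 4.3.3) on log2(value + 1) with eBayes trend, two-sided, with Benjamini-Hochberg adjustment over all genes tested. Effects were compared between lines in a model of 18 samples and 6 groups on 14550 genes. The tables were scaled separately, and each effect compares samples of 1 table. The fit was tested on simulated data. The recovered reads served for counting intervals, and the planned count models were not run on them. The study's methods describe repeats of its in vivo work as biological, while the labels do not tie a sample to an animal or litter, and p-values measure the spread between these samples. Deviations of samples with the same replicate number correlated weakly in the Rptor line, at 0.221, 0.330 and 0.259, which does not show that they are pairs. They correlated at 0.447, 0.202 and 0.0488 in the Cox10 line, and not throughout in the Tfam line.

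The 5 genes, the gene lists and the tests were chosen with earlier results of these data known. A listed partner gene is not reported here and was left out of the counts. Named genes were the 5 genes, their receptors and partners, at most the 2 largest rises and 2 largest falls past the threshold of each other list in a line, the 3 genes most alike to a gene that passed, and the targeted genes; Adm and Slc2a1 in the Rptor line were chosen after their values were seen. Exon lengths and loci were taken from GENCODE vM21 (mm10), and promoters from RefSeq (GRCm38.p6). Alternatives were other scalings, pseudocounts and filters, the replicate block, all 18 samples in one fit, leaving out each sample and, added after seeing the data, sample weights, the lists without each sample that stood apart and levels relative to marker lists, with and without those samples. Figures were drawn with matplotlib 3.10.9.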

Additional observations from a re-analysis of the deposited data

Results flagged for a closer look

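The effect of the deletion on Stc2 differed between the Rptor and Tfam lines, by -1.55 on the log2 scale (Rptor minus Tfam, limma adjusted p = 0.00705), with log2 fold changes of 0.29 and 1.85. The difference passed in all 18 fits that each left out a sample, with values from -1.94 to -1.32.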

How the results depend on the processing

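Scaling to library totals or by the trimmed mean of M-values, a pseudocount of 0.1, no filter and a mean of at least 50 changed no direction and no call of a gene tested in both fits. As the genes tested differ, Gdf15 was added without a filter to those past the threshold in the mean over lines (3 instead of 2), and a mean of at least 50 dropped it in the Tfam line (2 instead of 3, where Gdf15 had met the filter through the deficient lungs alone). With the replicate block the number of genes of the group past the threshold in the Rptor line was 2 instead of 1 (Ddit4, limma adjusted p = 0.0382), and the block changed no other call. With all 18 samples in one fit it was 2 in the Rptor line (Ddit4, limma adjusted p = 0.0378) and 1 in the Tfam line, where Vldlr lost the threshold (limma adjusted p = 0.555) and Gdf15 was not among the genes tested in all lines. With sample weights, added after seeing the data, 1 gene passed in the Cox10 line (Stc2, 0.54, limma adjusted p = 0.0409), and Ddit4 in the Tfam line (0.017) and Vldlr in the Cox10 line (-0.011) changed sign. Without a sample, the number past the threshold in the Tfam line was 2 to 3 (1 to 2 leaving out Gdf15) and that of effects differing between the Rptor and Cox10 lines 0 to 1. Signs changed for Stc2 in the Rptor line (-0.086 to 0.53), Ddit4 in the Tfam line (-0.095 to 0.058), Vldlr in the Cox10 line (-0.14 to 0.42) and, between the Tfam and Cox10 lines, Ddit4 (-0.028 to 0.24) and Vldlr (-0.15 to 0.41). Where no sample was left out, the cause of these changes was not tested. Same-numbered samples correlated at -0.312, -0.207 and 0.151 in the Tfam line and 0.447, 0.202 and 0.0488 in the Cox10 line. The labels name no litters, and the main fit had no block in any line. The planned count models were not run. Depth limits Fgf21 and Gdf15 in most groups, where a few reads decide the value.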
